A study of Homo sapiens with 3 samples.

Results

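NEAT1 is the long noncoding RNA around which paraspeckles, a kind of nuclear body, are built. Its contacts with TIA1 were described here from every interval of 3 deposited lists that overlapped the NEAT1 locus, which spans 65190269 to 65213011 of chromosome 11 (build hg19, plus strand). The locus held 112 of 103134 clusters of replicate 1, 102 of 66222 clusters of replicate 2 and 31 of the 2253 peaks of the authors' reproducible list (1.38%). NEAT1 was chosen by its listed peaks and folds in these same data, so its number of peaks and their size over input are given as a description, with no test.

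The samples were 2 TIA1 immunoprecipitates and 1 input, a library made without immunoprecipitation, from HEK293T, a human embryonic kidney cell line with the large T antigen of SV40. The assay, eCLIP, fixes proteins to the RNA they touch by ultraviolet light, pulls down 1 protein and sequences the RNA fragments that come with it. Cells had been crosslinked with 600 mJ and no other treatment was named. The labels call the replicates technical in one place and biological in another, so the spread between them may be technical. One protocol names Msi1 for the antibody that the antibody field calls anti-TIA1, under the same catalogue number, so every fold here belongs to TIA1 only as far as the titles and the antibody field are right.

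NEAT1 is transcribed without introns in its main forms, and both forms begin at the same start. The short form ends early, at a polyadenylation signal. The long form runs through that signal, and its middle part gathers the paraspeckle proteins, among them NONO and SFPQ, so that paraspeckles need the long form. TIA1 has RNA recognition motifs that prefer U-rich RNA. It moves between nucleus and cytoplasm, acts on splicing and on translation, and is best known as a component of stress granules.

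On hg19 the locus spans 22743 nt. The short form ends at about 65194003, which gives it 3735 nt, and 19008 nt belong to the long form alone. Fragments of the first 3735 nt can come from either form, which short intervals cannot tell apart. Positions below are counted from 1 at the 5′ end of NEAT1.

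As no hg19 sequence was used here, no base sequence was set under a peak. The RNA itself can be shown from GENCODE release 29, whose longest NEAT1 transcript, NEAT1-202, is annotated on GRCh38. This transcript is 22743 nt long, as is the hg19 span. The sequences of both builds were not compared, and its positions were not carried over to hg19. NEAT1-202 was searched on the sense strand for TTTTT, which is UUUUU in the RNA, with longer runs counted once. It held 80 runs in the part beyond the end of the last shorter NEAT1 transcript (4.20 per kb over 19027 nt). The part before that end held 9 (2.42 per kb over 3716 nt). U made up 32.5% of the stretch beyond that end and 27.8% of the stretch before it. Of all 60 nt windows of NEAT1-202, 19.8% held such a run, against 22.8% of the windows of MALAT1-202 and 14.7% of those of XIST-204, transcripts of other abundant nuclear RNAs. The following windows show the letters TIA1 is known to favour, with runs of at least 5 T in capitals. They are the richest in U beyond the end of the shorter transcripts (positions 9848 to 9907 of NEAT1-202) and before it (1979 to 2038), and then the first 60 nt of the transcript as a contrast with few U.
Long-only part, most U: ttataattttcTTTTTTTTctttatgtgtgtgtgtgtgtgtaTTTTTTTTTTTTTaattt
Short form part, most U: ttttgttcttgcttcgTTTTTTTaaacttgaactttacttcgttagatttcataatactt
5′ end: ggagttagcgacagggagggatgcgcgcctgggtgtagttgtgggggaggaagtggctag

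The 60 nt up to the last end of a shorter transcript hold AATAAA, the common polyadenylation signal, here in capitals.
End of the short form part: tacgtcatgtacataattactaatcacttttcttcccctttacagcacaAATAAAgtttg

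The windows richest in U held 43 U among 60 nt in the long-only part and 33 in the short form part, against 11 in the first 60 nt of the transcript. By kb of NEAT1-202, U ran highest in the 10th kb (42.7%, 11 runs), the 7th (40.0%, 9 runs) and the 9th (39.9%, 10 runs). It was lowest in the first (20.4%, 1 run), the 20th (22.4%, 2 runs) and the last, shortened one (22.6%, 0 runs). Windows and kb were ranked by sequence alone, and whether U content goes with TIA1 reads was not tested.

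TIA1 clusters lay from near the 5′ end of NEAT1 to near its 3′ end, with few in the 17th to 20th kb. The fold over input changed along NEAT1 in a like manner in both replicates, which share 1 input. A cluster is an interval in which the authors called a pile-up of reads, and its log2 fold compares its immunoprecipitated reads with its input reads, each scaled to the library total. The recovered totals were 2683407 reads in replicate 1, 1997817 in replicate 2 and 2851338 in the input. NEAT1 clusters held 7335 reads of replicate 1 and 4583 of replicate 2, against 1859 and 1555 input reads in the same intervals. They covered 18.4% of the locus in replicate 1 and 16.9% in replicate 2. A NEAT1 cluster held a median of 54 reads (21 to 253) in replicate 1 and 39 (18 to 160) in replicate 2, where a cluster anywhere held a median of 4 in each. The reads of 3 clusters of each replicate that lay under the input could not be recovered, and they are left out of read sums.

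**Figure D1:**
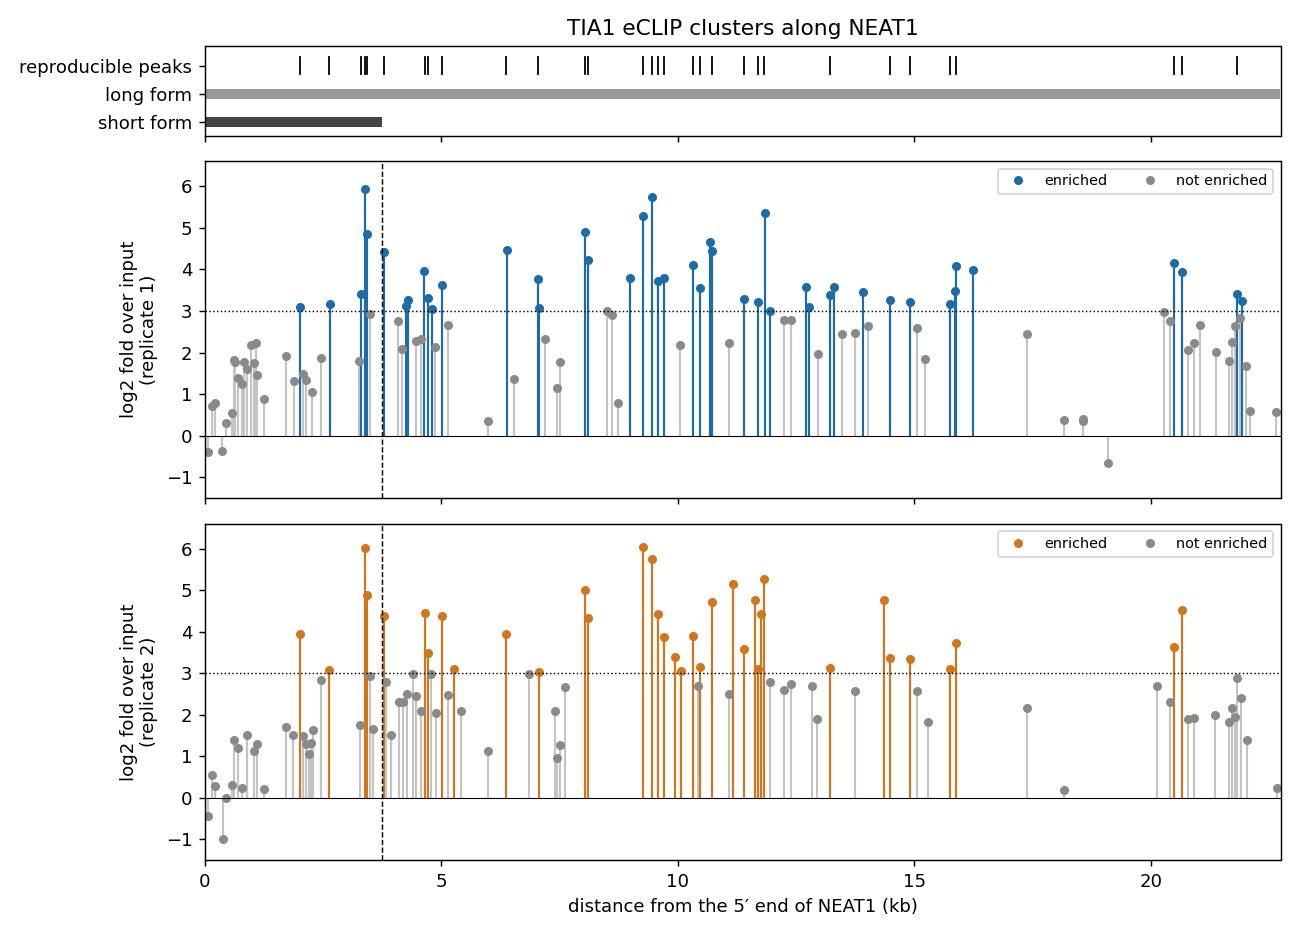
Every cluster of NEAT1 in replicate 1 and replicate 2, by distance from the 5′ end (kb) and log2 fold over input. Coloured points are enriched, with log2 fold and −log10 p both 3 or more, the dashed line is the end of the short form, and ticks on top mark the 31 reproducible peaks, of which none lies in the first 2 kb or in the 17th to 20th kb.

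Clusters whose log2 fold and −log10 p over input both reached 3 are called enriched here. In NEAT1 they made up 45 of 112 clusters of replicate 1 (40.2%), against a background of 3.09% of all its clusters, and 36 of 102 of replicate 2 (35.3%), against 5.32%. Among clusters with at least as many reads as the smallest NEAT1 cluster, 53.0% of replicate 1 and 63.5% of replicate 2 were enriched. Both shares are larger than in NEAT1. Reads of clusters under the input were not recovered, so this background cannot place them, while the NEAT1 shares count them. Nothing is read from these shares, since NEAT1 was chosen for its peaks. No cluster of either replicate lay on the opposite strand of the locus.

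The edges of the locus were clear in both lists. The first NEAT1 cluster began 20 nt past the annotated start in replicate 1 and 28 nt in replicate 2, with log2 folds of -0.38 and -0.44. The last ended 62 and 53 nt before the annotated end, with log2 folds of 0.56 and 0.25. Outside the locus the nearest cluster on the same strand was 30149 nt before the start in replicate 1 and 70946 nt in replicate 2, and 53539 and 53595 nt past the end.

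The folds ran alike in both replicates where their clusters met. Of the NEAT1 clusters of replicate 1, 89 of 112 (79.5%) overlapped a cluster of replicate 2 by at least 1 nt, and 83 of 102 (81.4%) in the other direction. Over all clusters the shares were 28.9% for replicate 1 and 45.0% for replicate 2, and at matched reads (as many as the smallest NEAT1 cluster or more) 93.8% and 97.4%. Over the 89 clusters of replicate 1, paired each with the cluster of replicate 2 that overlapped it most, the log2 folds had Pearson's r 0.96 and Spearman's rho 0.94, with a median absolute difference of 0.23. These points share 1 input and 1 transcript, so the correlation is only a description. Among enriched clusters, 31 of 45 of replicate 1 (68.9%) overlapped an enriched one of replicate 2, and 29 of 36 of replicate 2 (80.6%) an enriched one of replicate 1. The same shares over all enriched clusters were 63.4% and 57.1%, and at matched reads 80.6% and 82.3%.

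**Figure D2:**
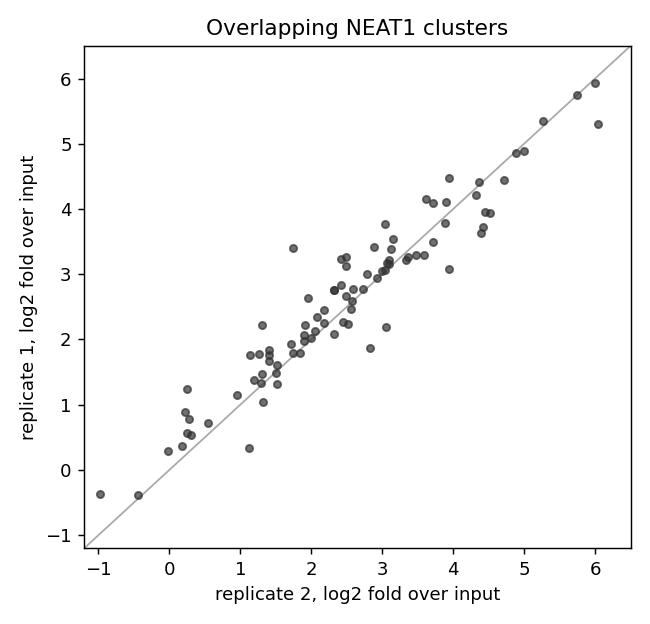
Log2 fold over input of 89 NEAT1 clusters of replicate 1 (vertical axis) against the overlapping cluster of replicate 2 (horizontal axis), each point 1 pair and the line equality. Points follow the line from folds under the input to the strongest sites, with Pearson's r 0.96.

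The question the 2 forms raise is whether TIA1 contacts differ between the long-only part and the short form. The long-only part held 26 reproducible peaks in 19008 nt and the short form 5 in 3735 nt, which is 1.37 and 1.34 peaks per kb. A reproducible peak is an interval on the authors' joint list of both replicates, and on it both the mean log2 fold and the −log10 p exceeded 3 throughout. Over the long-only part as a whole, enriched clusters numbered 40 in replicate 1 and 32 in replicate 2 (2.10 and 1.68 per kb). They were less dense in the short form, with 5 and 4 (1.34 and 1.07 per kb). The ratio of densities was 1.57 in each replicate, but it rests on only 5 and 4 clusters of the short form. Without the first kb, a setting added after seeing the data, it was 1.15 in each.

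Reads summed over clusters gave a larger contrast. In the long-only part, clusters held 4765 reads of replicate 1 and 3048 of replicate 2, over 898 and 748 input reads, a pooled log2 fold of 2.50 (95% interval 2.39 to 2.60) and 2.54 (2.42 to 2.66). In the short form they held 2570 and 1535 reads over 961 and 807 input reads, a pooled log2 fold of 1.51 (1.4 to 1.61) and 1.44 (1.32 to 1.56). The pooled fold of the long-only part was thus 1.98 times that of the short form in replicate 1 (1.79 to 2.20) and 2.14 times in replicate 2 (1.91 to 2.41). Clusters covered 2888 and 2753 nt of the long-only part and 1296 and 1100 nt of the short form. These lengths also count clusters left out of the sums. The sums took 81 of 82 and 74 of 74 clusters of the long-only part. Of the short form they took 28 of 30 and 25 of 28. The intervals cover counting error only, and sites of 1 transcript are not replicates. Over the replicates the ratio was 2.06 ± 0.11 (SD, n = 2). Both replicates share 1 input, so this SD leaves out the error of the input. An exact two-sided sign-flip test over 2 immunoprecipitates cannot go below p = 0.5, so none was run.

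The direction depended on which clusters were taken. Among enriched clusters alone, which the fold itself selects and of which the short form holds 5 and 4, the pooled fold of the long-only part was 0.81 times that of the short form in replicate 1 and 0.70 times in replicate 2. At a log2 fold of at least 1 the density ratio also turned, to 0.65 in replicate 1 and 0.71 in replicate 2. The short form thus carried a few strong sites among many weak ones. Clusters covered 15.2% of the long-only part in replicate 1 and 14.5% in replicate 2, against 34.7% and 29.5% of the short form. Input reads in clusters came to 47.2 and 39.4 per kb in the long-only part and to 257 and 216 per kb in the short form. The input level was thus lower in the part where the pooled fold was higher, and its part in the result was not tested.

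**Figure D3:**
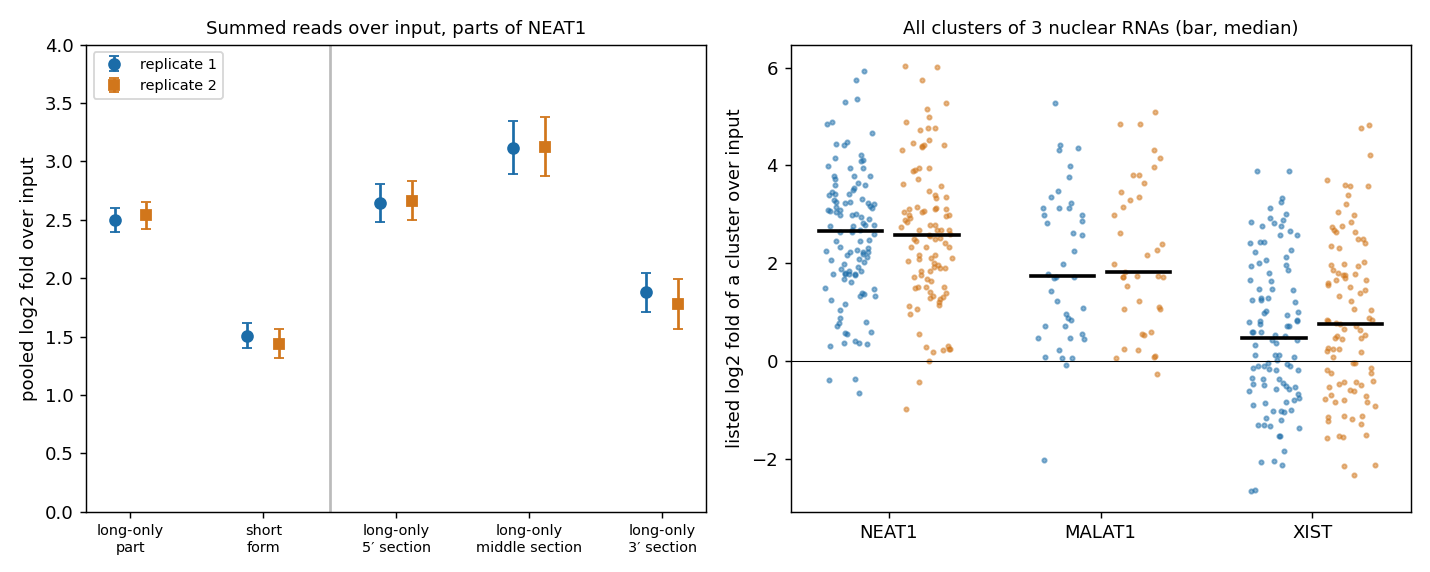
Left, pooled log2 fold over input of reads summed over clusters in the long-only part, the short form and 3 equal sections of the long-only part, by replicate, with 95% intervals for counting error. Right, listed log2 fold of every cluster of NEAT1, MALAT1 and XIST by replicate, with the median as a bar. The middle section of the long-only part stands highest, at 3.12 in both replicates, and the short form lowest, at 1.51 and 1.44.

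Within the long-only part the sites were not spread evenly. Cut into 3 sections of 6336 nt, it held 12 peaks in the 5′ section (3.74 to 10.1 kb), 11 in the middle section (10.1 to 16.4 kb) and 3 in the 3′ section (16.4 to 22.7 kb). Pooled log2 folds were 2.64 and 2.66 (replicates 1 and 2) in the 5′ section, 3.12 and 3.12 in the middle one, and 1.88 and 1.78 in the 3′ one. In either replicate the counting intervals of neighbouring sections did not overlap, in the same order: 2.48 to 2.81 and 2.50 to 2.83, 2.89 to 3.34 and 2.87 to 3.38, and 1.71 to 2.04 and 1.57 to 1.99. Of the 31 peaks, 12 fell between 8 and 12 kb, a window chosen after seeing the map.

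Read levels and folds ran apart along the RNA. The first kb held the most immunoprecipitated reads of any kb in replicate 1 (996 reads) and the most input reads in both replicates (518 and 336). These sums take its 11 and 7 clusters with recovered reads and leave out those under the input, which have the lowest folds. The pooled log2 fold so taken was only 1.03 (0.88 to 1.18) in replicate 1 and 0.68 (0.46 to 0.89) in replicate 2. None of the 13 and 10 clusters of this kb was enriched. The widest of these, from 94 to 192, held 253 reads in replicate 1 over 163 in the input, a log2 fold of 0.72. The 10th kb had few reads, 189 in replicate 1 and 219 in replicate 2, but only 7 and 13 in the input. Its pooled log2 fold was 4.84 (3.75 to 5.93) and 4.59 (3.78 to 5.39), and all of its 4 and 5 clusters were enriched.

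**Figure D4:**
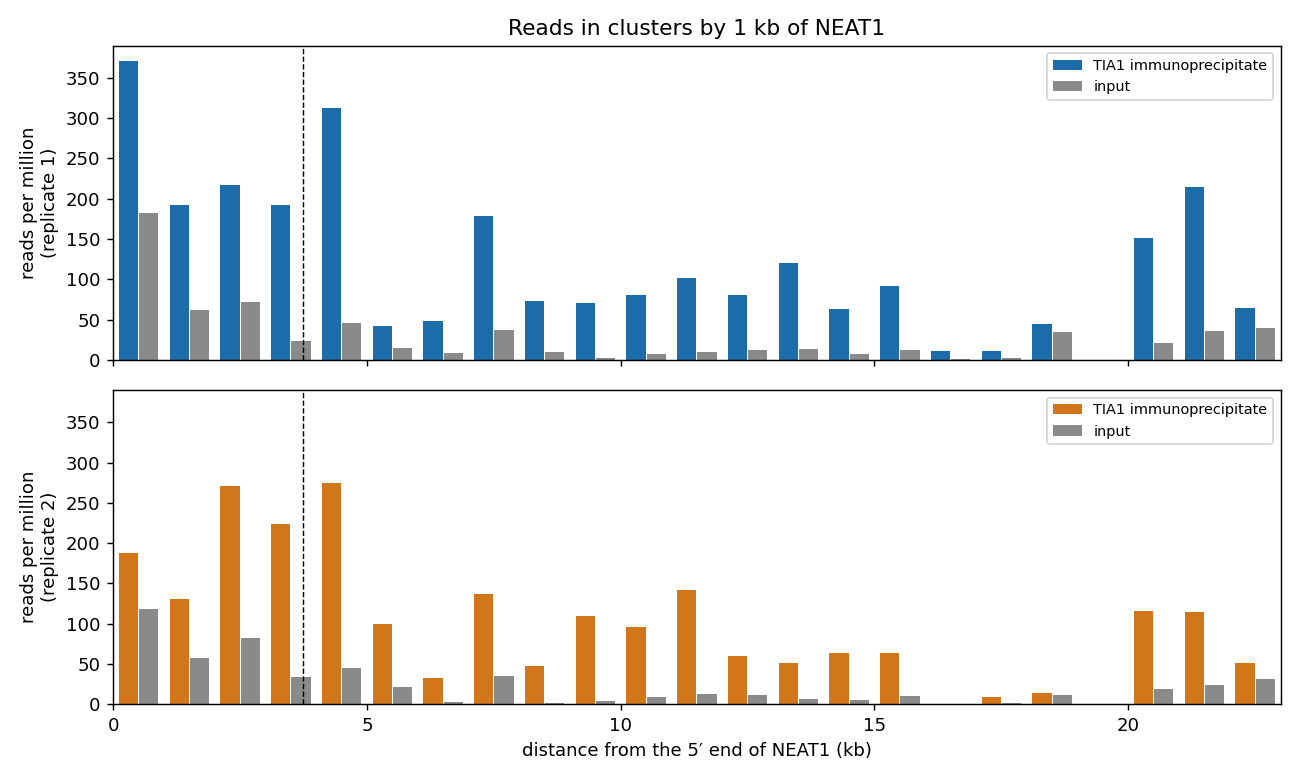
Reads in clusters, scaled to the library total as the axis states, by kb of NEAT1 from the 5′ end, in the TIA1 immunoprecipitate (left bar of each pair) and the input (right bar) of each replicate's clusters; the dashed line is the end of the short form. Input reads are highest in the first kb, with 518 reads in the clusters of replicate 1 and 336 in those of replicate 2. Clusters under the input, whose reads could not be recovered, are left out.

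The longest stretch with no reproducible peak ran from 15901 to 20454, 4552 nt within the long-only part. It held 8 clusters of replicate 1 and 4 of replicate 2. The one enriched among them, from 16237 to 16245, had 30 reads in replicate 1 over 2 in the input and met no cluster of replicate 2. In the 19th kb clusters lay close to the input, with 120 reads in replicate 1 over 98 (log2 fold 0.38, interval -0.01 to 0.76) and 27 reads in replicate 2 over 34 (0.18, -0.55 to 0.91). The 20th kb held a single cluster, of replicate 1, with a log2 fold of -0.67. The lists give no reads outside clusters, so the depth between them is unknown. The first 2005 nt also held no peak, but many clusters and many input reads.

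The 31 reproducible peaks of NEAT1 were narrow, with a median width of 34 nt (10 to 77) against 53 nt for all 2253. Their median listed log2 fold was 4.0 (3.16 to 5.97) against 4.15 for all peaks, and their median −log10 p 11.1 (6.02 to 31.5) against 4.88. They held a median of 60 reads in replicate 1 (26 to 134) and 44 in replicate 2 (25 to 90), with a median of 4 reads in the input (1 to 12). All reproducible peaks had medians of 24 and 20 reads over 1. The input stood at 1 read, the smallest value that occurs and one that may stand for 0, at 1 of the 31 NEAT1 peaks and at 51.3% of all peaks. Both replicates share that input, so the SD between them leaves out its error. Both replicates had a log2 fold of at least 3 at 29 of the 31, and the bounds came from replicate 1 at 12 and from replicate 2 at 19.

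The 5 peaks with the highest fold comprised 4 of the long-only part and 1 of the short form. In the long-only part, the peak from 9433 to 9482 (65199701 to 65199750) had 101 reads in replicate 1 and 75 in replicate 2 over 2 in the input, a log2 fold of 5.74 ± 0.0027 (SD, n = 2). The peak from 9241 to 9281 (65199509 to 65199549) had 40 and 46 reads over 1, a log2 fold of 5.72 ± 0.44 (SD, n = 2). Replicate 1 was the lower of the pair here, at 5.41 against 6.04. The peak from 11811 to 11853 (65202079 to 65202121) had 77 and 54 reads over 2, a log2 fold of 5.31 ± 0.06 (SD, n = 2). The peak from 8031 to 8059 (65198299 to 65198327) had 56 and 67 reads over 2, a log2 fold of 5.24 ± 0.48 (SD, n = 2), the widest spread among the 31. Replicate 2 was the higher in its share of reads at this peak.

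The strongest peak of NEAT1 by fold and by −log10 p lay in the short form, near its 3′ end. From 3358 to 3396 (65193626 to 65193664), it had 115 reads in replicate 1 and 90 in replicate 2 over 2 in the input, a log2 fold of 5.97 ± 0.05 (SD, n = 2), which is 62.6-fold, and a −log10 p of 31.5. By fold it ranked 42 among all 2253 peaks. It ended 339 nt before the end of the short form. Only 13 nt after it, the peak from 3410 to 3458 (65193678 to 65193726) had 110 and 83 reads over 4, a log2 fold of 4.88 ± 0.01 (SD, n = 2) and a −log10 p of 26.5. At each of these neighbouring sites the replicates gave nearly equal folds, and both sites lay in the part that the short and the long form share.

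The small input numbers limit how these sites can be ranked. At the peak from 3358 to 3396 the exact 95% counting interval of the log2 fold ran from 4.05 to 9.0 in replicate 1 and from 4.11 to 9.07 in replicate 2. At the peak from 9433 to 9482 it ran from 3.86 to 8.81 and from 3.84 to 8.81. The peak from 9241 to 9281 had the widest interval, 2.85 to 10.75 in replicate 1 and 3.49 to 11.37 in replicate 2. The strongest sites of both parts are thus not told apart by counting error.

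**Figure D5:**
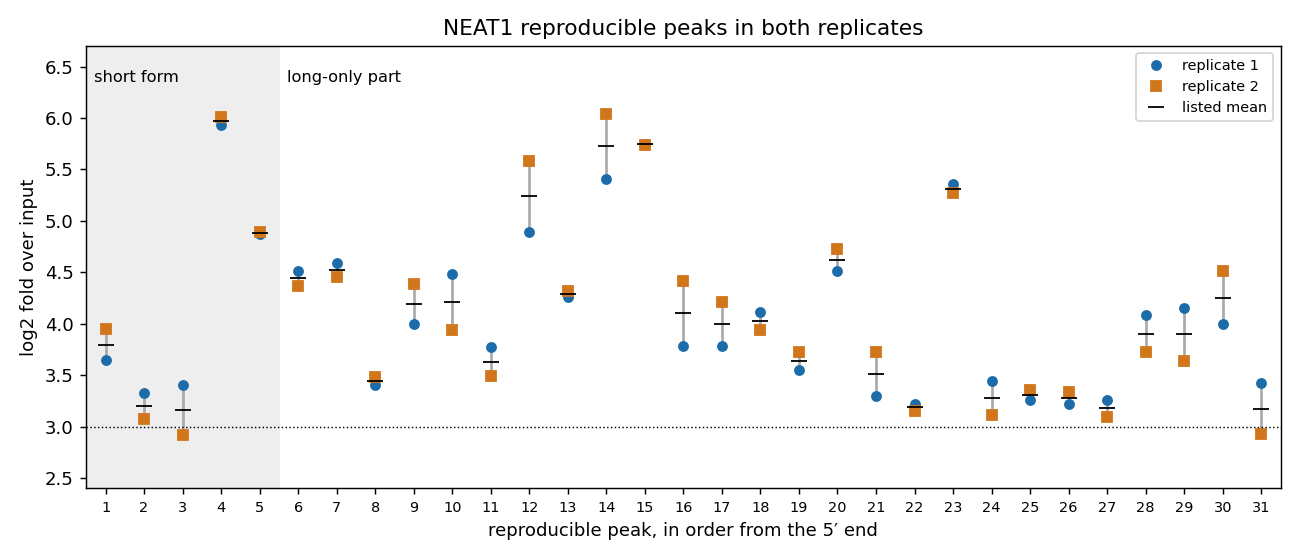
Log2 fold over input of the 31 reproducible peaks of NEAT1 in order from the 5′ end, with replicate 1 as circles, replicate 2 as squares, the authors' listed mean as a bar, a line joining the replicates, and the short form shaded. The peak from 3358 to 3396 is the 4th and the highest, at 5.97, and 29 of 31 peaks lie above 3 in both replicates.

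The peaks on either side of the end of the short form stood 314 nt apart. The one beyond it, from 3773 to 3797 (65194041 to 65194065), had 43 and 29 reads over 2, a log2 fold of 4.44 ± 0.10 (SD, n = 2). It began 38 nt past an end that is known only approximately, so its place in the long-only part depends on that end. The one before it is the peak from 3410 to 3458, which ended 277 nt short of the end. The long-only part without its first 500 nt and the short form without its last 500 nt gave a ratio of densities of 3.41 in replicate 1 and 2.71 in replicate 2. Those last 500 nt held 3 of the 5 peaks of the short form.

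The outermost peaks had log2 folds under the median of 4.0 for NEAT1 peaks, as did many inner ones. The last peak of the long-only part, from 21797 to 21851 (65212065 to 65212119), had 121 and 64 reads over 12, a log2 fold of 3.17 ± 0.35 (SD, n = 2), and stood 892 nt before the annotated 3′ end. The first peak of NEAT1, from 2006 to 2034 (65192274 to 65192302) in the short form, had 59 and 54 reads over 5, a log2 fold of 3.80 ± 0.21 (SD, n = 2). Among the 5 peaks with the highest −log10 p, that from 20454 to 20530 (65210722 to 65210798) lay in the 3′ section of the long-only part, with 134 and 70 reads over 8 and a log2 fold of 3.90 ± 0.36 (SD, n = 2). With 77 nt it was also the widest NEAT1 peak.

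Peaks came singly and in tight groups. The gap to the next peak had a median of 343.5 nt and ran from 13 to 4552 nt, and 7 gaps were under 100 nt. Between 9241 and 9707 in the long-only part, 4 peaks followed one another, the first pair described above at log2 folds of 5.72 and 5.74. The others, from 9565 to 9589 and from 9698 to 9707, had 26 reads each in replicate 1, and 30 and 26 in replicate 2, over 2 in the input, with log2 folds of 4.10 ± 0.45 and 4.0 ± 0.30 (SD, n = 2).

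Close to the threshold, the lowest listed peak was that from 3293 to 3320 in the short form, with a log2 fold of 3.16 ± 0.35 (SD, n = 2), 70 reads in replicate 1 and 37 in replicate 2 over 7. Replicate 2 stood under the threshold there, at 2.92. Just outside it, the cluster of replicate 1 from 8491 to 8512 had a log2 fold of 2.99 on 30 reads over 4, and that of replicate 2 from 4738 to 4823 a log2 fold of 2.99 on 78 reads over 14.

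Some enriched clusters appeared in 1 replicate. In replicate 1, 7 of 45 enriched clusters met no cluster of the other list, and in replicate 2, 6 of 36 did not. Every one lay in the long-only part, which held 40 of the 45 and 32 of the 36. Among all enriched clusters the shares that met none were 4.93% for replicate 1 and 4.94% for replicate 2, and at matched reads 1.82% and 1.49%. In both replicates the NEAT1 share is larger than either of these. The strongest in replicate 1, from 10681 to 10687, had 24 reads over 1 in the input and a log2 fold of 4.67. The strongest in replicate 2, from 11162 to 11176, had 25 reads over 1 and a log2 fold of 5.16. Those intervals were 7 and 15 nt wide, and the smallest NEAT1 cluster held 21 reads in replicate 1 and 18 in replicate 2. A further 7 enriched clusters of replicate 1 and 1 of replicate 2 met a cluster of the other list that was not enriched.

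Whether the replicates differed at a NEAT1 peak by more than counting error was tested on the 2247 reproducible peaks with whole reads (Fisher's exact test, two-sided, against the library totals, Benjamini-Hochberg adjustment over all of them). Of these, 41 (1.82%) passed an adjusted p of 0.05, and 0 of the 31 NEAT1 peaks did. A chi-square test called 44 peaks and again 0 in NEAT1. Unadjusted, 5 of 31 NEAT1 peaks fell under 0.05, against 230 of all 2247 (10.2%). The smallest was at the peak from 8031 to 8059, with 56 and 67 reads (exact p = 0.0104, adjusted p = 0.202). With so few calls over all peaks, and with a list made from both replicates, 0 among 31 says little. A test that misses the threshold does not show that the replicates were alike there, and the test compares these libraries only.

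MALAT1 lies next to NEAT1 on the same strand and is the RNA of nuclear speckles, and XIST coats the inactive X chromosome. Their hg19 bounds are those commonly annotated and were not given by the files. The median listed log2 fold over all clusters was 2.66 in replicate 1 and 2.57 in replicate 2 for NEAT1, 1.75 and 1.83 for MALAT1, and 0.46 and 0.76 for XIST. Reproducible peaks numbered 31 in NEAT1, 13 in MALAT1 and 8 in XIST, or 1.36, 1.49 and 0.249 per kb of the genomic span, which for XIST includes introns. Clusters at or under the input made up 2.68% and 2.94% of those of NEAT1, 4.76% and 2.56% of those of MALAT1, and 41.5% and 35.1% of those of XIST. Strong single sites were not peculiar to NEAT1, since the highest peak reached a log2 fold of 5.97 in NEAT1, 5.88 in MALAT1 and 4.11 in XIST. These values carry no test, as NEAT1 was chosen for its peaks and each RNA is 1 transcript.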

How the data were processed

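Per the labels, the samples are 2 TIA1 immunoprecipitates and 1 input of HEK293T cells. The tools listed are STAR 2.4.0i, SAMtools 1.4.1 and cutadapt, versions 1.14 and 1.9.1, with build hg19, per the submitters' processing notes. The role of each tool and the cluster caller are not named there. The 3 deposited lists give, per interval, the authors' −log10 p over input, which stops at 400, and the authors' log2 fold over input. They have no header, so both units were read from the values. Clusters were called per replicate and 1 list joins both. These values are the authors' own, and those of the replicate lists were set side by side at overlapping clusters, both being relative to the same input. The input enters only through these values.

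NEAT1, the lists and the comparisons were chosen with earlier results of these data known. Library totals were recovered as the whole numbers (a base times 1 to 6, with 3 kept) that returned the log2 steps and p-values, and reads per interval as the whole numbers that matched the −log10 p within a relative tolerance of 1e-04. They were unique for 89.2% of clusters of replicate 1 and 93.5% of replicate 2. At a peak the replicate that did not supply the bounds got its fold from the listed mean, and whole reads (within 1e-04) resulted at 31 of 31 NEAT1 peaks and 2247 of 2253 in all. At 31 of 31 the lower −log10 p so computed matched the listed one. The names of the deposited cluster lists carry a mark that duplicates had been removed, and how is not stated in the sources used here. Adjacent clusters may share reads, and intervals cover counting error only.

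A cluster belonged to the short form or the long-only part by its midpoint. Named sites were the 5 with the highest fold, the 5 with the highest −log10 p, the first and last, those on either side of the short form end and those nearest the threshold; single-replicate sites and the grouped peaks were picked after seeing values. The backgrounds at matched reads and of overlap were also added after seeing the data. Those at matched reads cannot place clusters under the input, whose reads were not recovered. Fisher's exact test and intervals used scipy 1.17.1 and adjustment statsmodels 0.14.6 with Python 3.11.15. Only the recovery of reads and the test between replicates were tried on simulated data. Settings tried are in the closing section. A search for U runs under peaks and counts over paraspeckle protein transcripts need hg19 sequence and annotation and were not run.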

Additional observations from a re-analysis of the deposited data

How the results depend on the processing

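Of 29 settings tried, 14 left a value unchanged, 13 moved it further and 2 turned a direction. Unchanged means within the replicate spread, within 1.5 times the count or, for overlap shares, within a binomial interval. That interval takes clusters as independent, which those of 1 transcript are not. Some outcomes were fixed in advance, so the tally says little. Leaving out 1 of 2 replicates always stays within the spread. The density ratio was equal in both replicates, with an SD of 0, so any change of it counted as a move or a turn. At a log2 fold of at least 1, enriched NEAT1 clusters numbered 95 in replicate 1 and 88 in replicate 2, and the density ratio of the long-only part over the short form turned to 0.683, against 1.57. With the minimum raised to 4 for the log2 fold and 5 for the −log10 p there were 14 and 17 such clusters, the density ratio was 1.33, and 52.9% of those of replicate 2 met one of replicate 1. The density ratio was 3.06 without 500 nt on each side of the short form end, 1.47 in covered nucleotides and 1.15 without the first kb, a setting added after seeing the data. The pooled fold ratio, 2.06 as a mean of the replicates, turned to 0.751 over enriched clusters only. It was 2.41 without 500 nt on each side of the end, 2.57 by median listed fold, 1.57 without the first kb and 2.47 with clusters under the input counted at their smallest reads, the last 2 added after seeing the data. Leaving out a replicate gave 1.57 for the density ratio either way and 1.98 to 2.14 for the pooled fold ratio. The cause of these moves was not tested. No paired analysis was possible because 1 input stands against 2 immunoprecipitates, and its title names no replicate. The setting on runs of U in peaks was not run, for want of hg19 sequence here. Depth limits single sites, as input numbers of 1 to 12 stand behind the NEAT1 peaks.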
